A study of Mus musculus with 16 samples.

Results

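The crypt stem and progenitor genes of the colon described here were Lgr5, Ascl2, Olfm4, Smoc2, Hopx, Prom1, Lrig1, Bmi1, Axin2 and Sox9, which were found by their gene names among the spots that were not controls. They made up 10 of the 36711 genes tested and were read by 20 of the 56605 probes. Colon RNA of 16 pups of the outbred RjOrl:SWISS stock was measured at weaning (3 weeks of age) on 1-colour Agilent mouse arrays, 1 pup per array, and no pup carried a labelled allele or had received an agent. The 8 C-section delivered (CSD) pups were taken by hysterectomy at day 19 of gestation. They were nursed by other females, whose own vaginal births lay at most 12 h back. The 8 vaginally delivered (VD) pups were exchanged between VD mothers. CSD pups were born to mother 3 (2 females and 2 males) and mother 4 (2 females and 2 males), and VD pups to mother 5 (2 females and 3 males) and mother 6 (3 males). Delivery mode therefore varied only between litters, with 2 litters in each group, and each of the 2 slides held 4 CSD and 4 VD pups.

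Levels are log2 intensities after background correction and quantile normalization, and differences are log2 fold changes of CSD over VD pups, adjusted for sex and with the mother as a random effect in limma. A gene is called where its p-value, adjusted over all genes by the Benjamini-Hochberg procedure, was under 0.05. A probe's intensity depends on its sequence, so levels are compared between pups and not between genes. Of the spots that were not controls, 61.6% to 64.5% lay well above background in CSD pups and 58.7% to 64.9% in VD pups, and 0 spots were saturated. The labelled tissue was checked with markers. All 12 markers of intestinal epithelium, all 13 of differentiated colonocytes and all 8 of smooth muscle had a probe well above background on every array. Of the 11 measured markers of Paneth cells and small intestine, 8 did not, among them Sis, Lct, Alpi, Apoa1, Apoa4 and Fabp1. The other 3, Lyz1 (13.34 in CSD and 13.74 in VD pups), Fabp6 and Slc10a2, did, so the markers of this list did not all go the same way.

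The colon epithelium is renewed by stem cells at the base of its crypts, which divide and send progenitors upwards that mature into absorptive colonocytes, goblet cells and enteroendocrine cells. Wnt ligands and R-spondins from cells around the crypt base keep the stem cells in their state, and BMP signals, which strengthen towards the lumen, favour maturation. Some of the genes below are Wnt targets of fast-cycling stem cells, whereas others were described in slowly cycling, reserve or more broadly placed progenitor cells.

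In the comparison of CSD with VD pups, which asks whether the delivery mode left a difference in the colon at weaning, 0 of the 10 genes were called with limma, where 1.25% of all genes were. At an unadjusted p under 0.05 there were 2 of 10, Hopx and Prom1, against 14.5% of all genes. Of the 9 genes with a probe well above background on all arrays, which leaves out Olfm4, 6 had a positive and 3 a negative log2 fold change relative to VD pups (median 0.04). The median over all 10 was 0.02, beside 0.0029 over all genes, of which 51.7% were higher. The 2 groups of pups did not separate fully in any of the 10 genes, a separation that 0.493% of genes with a value on every array showed. Tested probe by probe, 0 of the 20 probes were called, against 1.74% of all probes. The colon was measured as whole tissue, so fewer crypt cells and less RNA per crypt cell cannot be told apart.

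**Figure D1:**
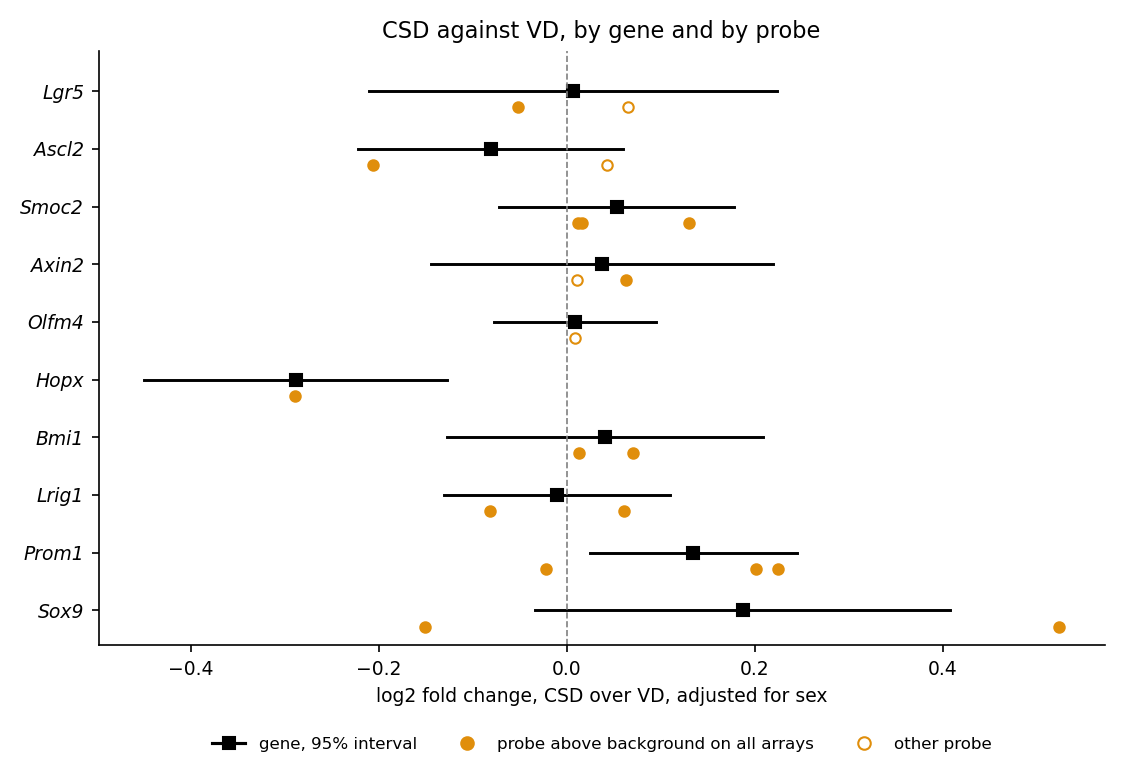
Log2 fold change of CSD over VD pups for each of the 10 genes (squares, with 95% intervals) and for each of their 20 probes (circles, open where the probe was not well above background on all arrays). Hopx is lowest at -0.29 with an interval below 0, Prom1 is at 0.13 with an interval above 0, and the 2 probes of Sox9 lie on opposite sides of 0.

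The genes of Wnt-dependent stem cells at the crypt base had close values in both groups. Lgr5, a receptor for R-spondins and the best known marker of these cells, lay between 7.89 and 8.50 (median 8.27) in CSD pups and between 7.90 and 8.42 (median 8.08) in VD pups. The 2 ranges nearly coincided, and the log2 fold change was 0.01 (95% interval -0.21 to 0.22, adjusted p = 0.986 with limma). This interval allows a level in CSD pups between 0.86-fold and 1.17-fold of that in VD pups. Of its 2 probes, 1 was well above background on all 16 arrays (log2 fold change -0.05, 95% interval -0.33 to 0.23), and the other on 8 CSD and 7 VD arrays (0.07).

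Ascl2, a transcription factor that acts with Wnt signalling to set the stem cell state, lay between 8.79 and 9.11 (median 9.02) in CSD pups and between 8.81 and 9.21 (median 9.08) in VD pups. Its log2 fold change was -0.08 (95% interval -0.22 to 0.06, adjusted p = 0.636, limma), and 7 of 8 CSD pups lay below the VD median. The gene value averages 2 probes, of which the one for a predicted transcript was well above background on 0 arrays. The other, above background on all arrays, gave a log2 fold change of -0.21 (standard error 0.13, unadjusted p = 0.124), within which the groups overlapped.

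Smoc2, a secreted matrix protein made by Lgr5-positive stem cells, lay between 9.96 and 10.43 (median 10.19) in CSD pups and between 9.97 and 10.28 (median 10.09) in VD pups. Its log2 fold change was 0.05 (95% interval -0.07 to 0.18, adjusted p = 0.746, limma), and the groups overlapped over most of their range. Axin2, a negative feedback target of Wnt signalling, lay between 7.83 and 8.21 (median 7.99) in CSD and between 7.65 and 8.27 (median 7.96) in VD pups. Its log2 fold change was 0.04 (95% interval -0.14 to 0.22, adjusted p = 0.888, limma), with the CSD range inside the VD range. Olfm4, a secreted glycoprotein used as a stem cell marker in the human gut and the mouse small intestine, was read by 1 probe that was well above background on 0 of 16 arrays, so that neither group gave more than a bound for it. Olfm4 was also the only one of the 10 genes without a row in the deposited gene matrix of 27036 genes.

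Hopx, a homeodomain protein described in slowly cycling and reserve stem cells, was the gene with the smallest p of the 10. It was measured by a single probe, A_55_P2011286, which maps to chr5:77516624-77516683 (mm9, minus strand). The last 30 bases of the probe are shown, in lower case throughout, because no other probe gave a value for Hopx.
Hopx A_55_P2011286: tgtcctgctatttaacacaatgtgtttttt
In CSD pups Hopx lay between 10.83 and 11.20 (median 11.03), and in VD pups between 11.13 and 11.54 (median 11.29). All 8 CSD pups lay below the VD median, 5 of them lay below every VD pup, and 5 VD pups lay above every CSD pup. The means were 11.03 ± 0.14 (SD, n = 8) for CSD, against 11.31 ± 0.15 (SD, n = 8) for VD pups, a level 1.22-fold lower in CSD pups after adjustment for sex. The log2 fold change was -0.29 (standard error 0.08, 95% interval -0.45 to -0.13), with an unadjusted p of 0.00162 and an adjusted p of 0.0768 in limma, which misses the threshold. An exact two-sided permutation test over all 12870 assignments of 8 pups gave p = 0.00326. This test and those of Prom1 and Sox9 below exchanged pups without regard to litter or sex, although delivery mode varied only between litters. Over 38 alternatives the adjusted p lay between 0.0175 and 0.596 and Hopx was lower in CSD pups in all, and it was called in 2 of them, without sex in the model and without the litter of mother 6. More of all genes were called in each of these 2 fits than in the fit reported.

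The lower Hopx values of CSD pups were seen in each litter, each sex and each slide, but not to the same extent. The litter means were 11.02 and 11.04 for mothers 3 and 4 against 11.36 and 11.21 for mothers 5 and 6, so both CSD litters lay below both VD litters. The difference was -0.28 in males and -0.30 in females. On slide 1 the 4 CSD pups (10.83 to 11.18) lay below all 4 VD pups (11.33 to 11.54), a difference of -0.43, and on slide 2 the CSD pups (10.94 to 11.20) overlapped the VD pups (11.13 to 11.25), with a difference of -0.12. The difference between the slides was 0.31 (standard error 0.11, unadjusted p = 0.0178, adjusted p = 0.976, limma). At an unadjusted p under 0.05 the slides differed in 3.84% of all genes, and after adjustment in 0%. The antisense gene Hopxos, which has probes of its own, was at 6.96 ± 0.56 (SD, n = 8) for CSD, against 6.76 ± 0.14 (SD, n = 8) for VD pups (log2 fold change 0.16, adjusted p = 0.779, limma).

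**Figure D2:**
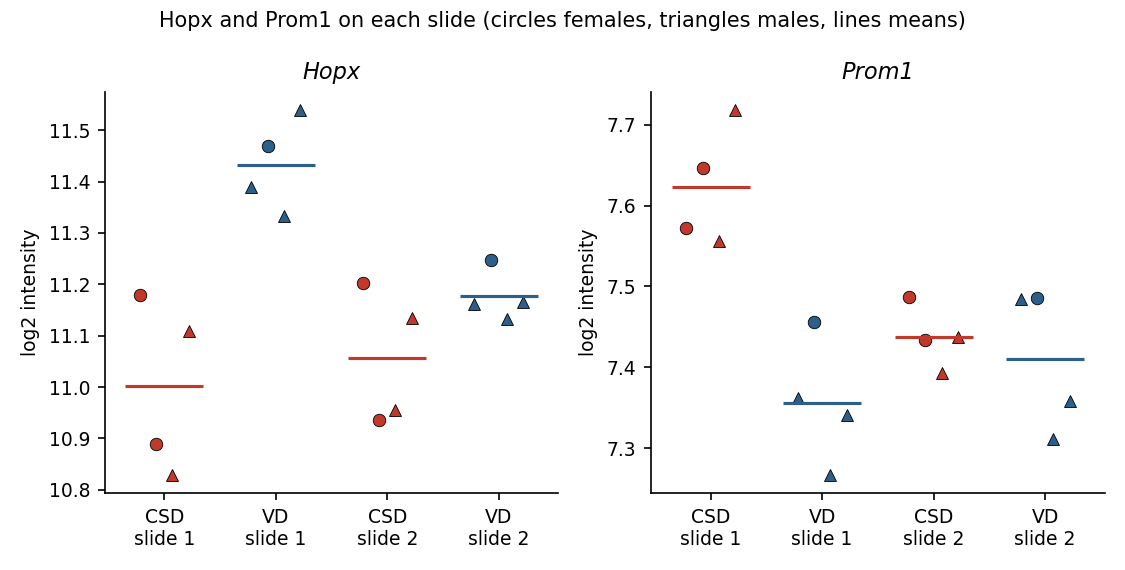
Log2 intensity of Hopx (left) and Prom1 (right) in each pup, by slide and delivery mode, with a line at each mean of 4 pups. On slide 1 the CSD and VD pups do not overlap in either gene, and on slide 2 they do in both.

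Prom1, a membrane glycoprotein of stem and transit-amplifying cells, was the other gene with an unadjusted p under 0.05. Its 3 probes are shown, by their last 30 bases, because they differed from each other. They lie on chromosome 5 on the minus strand (mm9), at chr5:44397410-44397469, chr5:44447181-44447240 and chr5:44491120-44491275.
Prom1 A_52_P402786: tactttgaacattatctgcactgggtcttt
Prom1 A_66_P128318: gcggcggagagatgcaccagcggcagaagc
Prom1 A_52_P1194875: gctatttagcaagttcagtgaagtaaacag
The gene value lay between 7.39 and 7.72 (median 7.52) in CSD pups and between 7.27 and 7.49 (median 7.36) in VD pups. All 8 CSD pups lay above the VD median and 5 lay above every VD pup. The log2 fold change was 0.13 (95% interval 0.02 to 0.24, adjusted p = 0.225, limma, exact permutation p = 0.00995), a level 1.10-fold higher in CSD pups. By probe, the log2 fold changes were 0.22 (A_52_P402786, unadjusted p = 0.0279), 0.20 (A_66_P128318, unadjusted p = 0.00592) and -0.02 (A_52_P1194875, unadjusted p = 0.734). The first 2 probes correlated over the 16 pups (r = 0.65), whereas the third did so with neither (r = 0.07 and -0.07). On slide 1 the CSD pups (7.56 to 7.72) lay above all VD pups (7.27 to 7.46), a difference of 0.27. On slide 2 the difference was 0.03 and the groups overlapped, and the slides differed by -0.24 (unadjusted p = 0.00494, adjusted p = 0.976, limma).

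Lrig1, a membrane protein that restrains EGF receptor signalling and marks a broad progenitor population, lay between 11.24 and 11.60 (median 11.42) in CSD pups and between 11.31 and 11.59 (median 11.41) in VD pups. Its log2 fold change was -0.01 (95% interval -0.13 to 0.11, adjusted p = 0.956, limma), and the ranges nearly coincided. Bmi1, a Polycomb protein that keeps target genes silent and was described in reserve stem cells, lay between 8.36 and 8.60 (median 8.42) in CSD and between 8.25 and 8.86 (median 8.37) in VD pups. Its log2 fold change was 0.04 (95% interval -0.13 to 0.21, adjusted p = 0.866, limma), and the VD range was set by VD pup 6, which lay above every other pup.

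Sox9, a transcription factor of crypt progenitors that also acts downstream of Wnt signalling, varied most between pups of the 10 genes, with an SD of 0.28 over the 16 pups. It lay between 9.33 and 10.04 (median 9.60) in CSD pups and between 9.03 and 9.82 (median 9.31) in VD pups. All 8 CSD pups lay above the VD median, but the ranges overlapped, and the log2 fold change was 0.19 (95% interval -0.03 to 0.41, adjusted p = 0.437, limma, exact permutation p = 0.0577). This value is the mean of 2 probes of the same transcript that behaved differently.

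The 2 Sox9 probes are shown by their last 30 bases because the result depends on which is read. Both lie on the plus strand of chromosome 11 (mm9), the upstream one at chr11:112646642-112646701 and the downstream one at chr11:112647560-112647619, with 918 bases between their starts. Both were well above background on all 16 arrays.
Sox9 upstream A_55_P2745144: tcagggctctactccaccttcacttacatg
Sox9 downstream A_55_P2798454: gttcttggatttcaagagtagctgccttaa
The downstream probe lay between 10.56 and 11.44 (median 10.80) in CSD pups and between 9.79 and 10.99 (median 10.28) in VD pups. All VD pups but VD pup 9 lay below every CSD pup with this probe, and its log2 fold change was 0.52 (standard error 0.14, unadjusted p = 0.00234, adjusted p = 0.0796 over all probes, limma, exact permutation p = 0.00435). The upstream probe lay between 8.01 and 8.63 (median 8.31) in CSD pups and between 8.18 and 8.64 (median 8.39) in VD pups, overlapping over most of the range. Its log2 fold change was -0.15 (standard error 0.09, unadjusted p = 0.115). Over the 16 pups the 2 probes had a correlation of 0.22.

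The difference between the 2 probes of a gene was then fitted in the same model, for the 2 brightest probes of every gene that had at least 2 probes well above background on all arrays, an analysis chosen after the Sox9 probes had been seen. In 4.52% of these 6838 genes the difference between probes was called between CSD and VD pups. In Sox9 the downstream minus the upstream probe lay between 2.14 and 3.00 (median 2.61) in CSD and between 1.52 and 2.35 (median 1.83) in VD pups. Of the 8 CSD pups, 7 lay above every VD pup. The difference shifted by 0.67 (standard error 0.13, adjusted p = 0.00988, limma, exact permutation p = 0.000466), and Sox9 had rank 56 by p. It was not called without the litter of mother 4 (0.59, adjusted p = 0.116) or of mother 5 (0.60, adjusted p = 0.0999), on each slide alone (0.53 and 0.82), in males (0.59, adjusted p = 0.167), with the title number as a replicate block (0.56, adjusted p = 0.198) or with the 4 litter means as samples (0.75, adjusted p = 0.126), and was above 0.5 in each. Among the other members with 2 such probes, the shift was -0.14 in Lrig1 (adjusted p = 0.0714), -0.06 in Bmi1 (adjusted p = 0.847), 0.02 in Prom1 (adjusted p = 0.921) and below 0.01 in size in Smoc2 (adjusted p = 0.99). An intensity from 1 probe cannot tell transcript ends, sequence variants of an outbred stock and binding of another RNA apart, and which of them lies behind the shift was not tested.

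**Figure D3:**
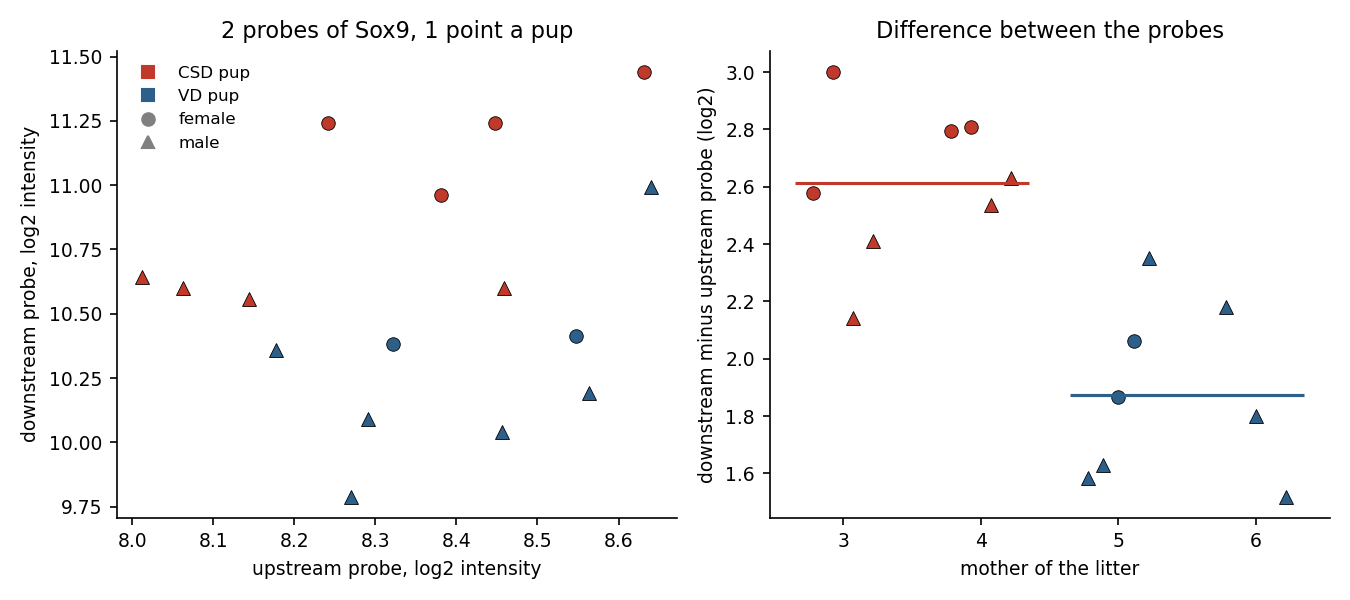
Left, log2 intensity of the downstream against the upstream Sox9 probe, 1 point per pup. Right, the difference between the probes by litter, with a line at the mean of each delivery mode (2.61 in CSD and 1.87 in VD pups), where 7 of 8 CSD pups lie above every VD pup.

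Females and males were compared in the same fit, and 0 of the 10 genes were called, beside 0.0599% of all genes. At an unadjusted p under 0.05 there were 2, Sox9 and Smoc2, against 6.45% of all genes. Sox9 was at 9.69 ± 0.25 (SD, n = 6) in females and 9.35 ± 0.21 (SD, n = 10) in males, a difference of 0.29 (standard error 0.10, unadjusted p = 0.0138, adjusted p = 0.691, limma). With the downstream Sox9 probe, the 4 CSD females (10.96 to 11.44) lay above the 4 CSD males (10.56 to 10.64), and the 2 VD females (10.38 and 10.41) lay inside the range of the 6 VD males (9.79 to 10.99). Smoc2 was 0.14 higher in females (standard error 0.06, unadjusted p = 0.0357, adjusted p = 0.752, limma). When each of the 16 pups was left out, the unadjusted p of Smoc2 stayed under 0.05 in 9 fits and that of Sox9 in all 16. The effect of delivery mode was not found to depend on sex in any of the 10 genes, with 0 at an unadjusted p under 0.05 against 4.72% of all genes, and 0 called against 0.00272%. The largest of these interactions was in Sox9, at 0.35 (95% interval -0.07 to 0.77), with a log2 fold change of 0.06 in males and 0.41 in females. Only 2 of the VD pups were female, both from mother 5.

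In some of these genes the litters of 1 delivery mode lay further apart than the delivery modes did. Between the litters of mothers 3 and 4, 0 of the 10 genes were called (0.0872% of all genes) and 2 had an unadjusted p under 0.05 (7.68% of all genes). Lgr5 was at 8.02 ± 0.16 (SD, n = 4) in pups of mother 3 and 8.36 ± 0.10 (SD, n = 4) in those of mother 4, a difference of -0.34 (unadjusted p = 0.00898, adjusted p = 0.418, limma). Lrig1 was at 11.32 ± 0.09 (SD, n = 4) and 11.51 ± 0.07 (SD, n = 4) in the same litters, a difference of -0.19 (unadjusted p = 0.00679, adjusted p = 0.388, limma). In both genes the litter of mother 3 was the lowest and that of mother 4 the highest of the 4 litters.

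Between the litters of mothers 5 and 6, 0 genes were called (0.874% of all genes) and 3 of the 10 had an unadjusted p under 0.05 (11.5% of all genes). Axin2 was 0.29 higher (unadjusted p = 0.0155) and Ascl2 0.22 higher (unadjusted p = 0.0154, and 0.43 with the Ascl2 probe above background) in pups of mother 5, and Bmi1 was 0.28 lower in them, at -0.28 (unadjusted p = 0.0126). Without VD pup 6, 1 of the 3 pups of mother 6, the differences were -0.13 in Bmi1 (unadjusted p = 0.0987), 0.16 in Ascl2 (unadjusted p = 0.0921) and 0.23 in Axin2 (unadjusted p = 0.0742), so that 0 of these 3 genes kept an unadjusted p under 0.05. Axin2 was at 0.22 (unadjusted p = 0.0519) without VD pup 9, a pup of mother 5. In the comparison of CSD and VD pups the log2 fold changes of these 5 genes lay between -0.08 and 0.04.

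**Figure D4:**
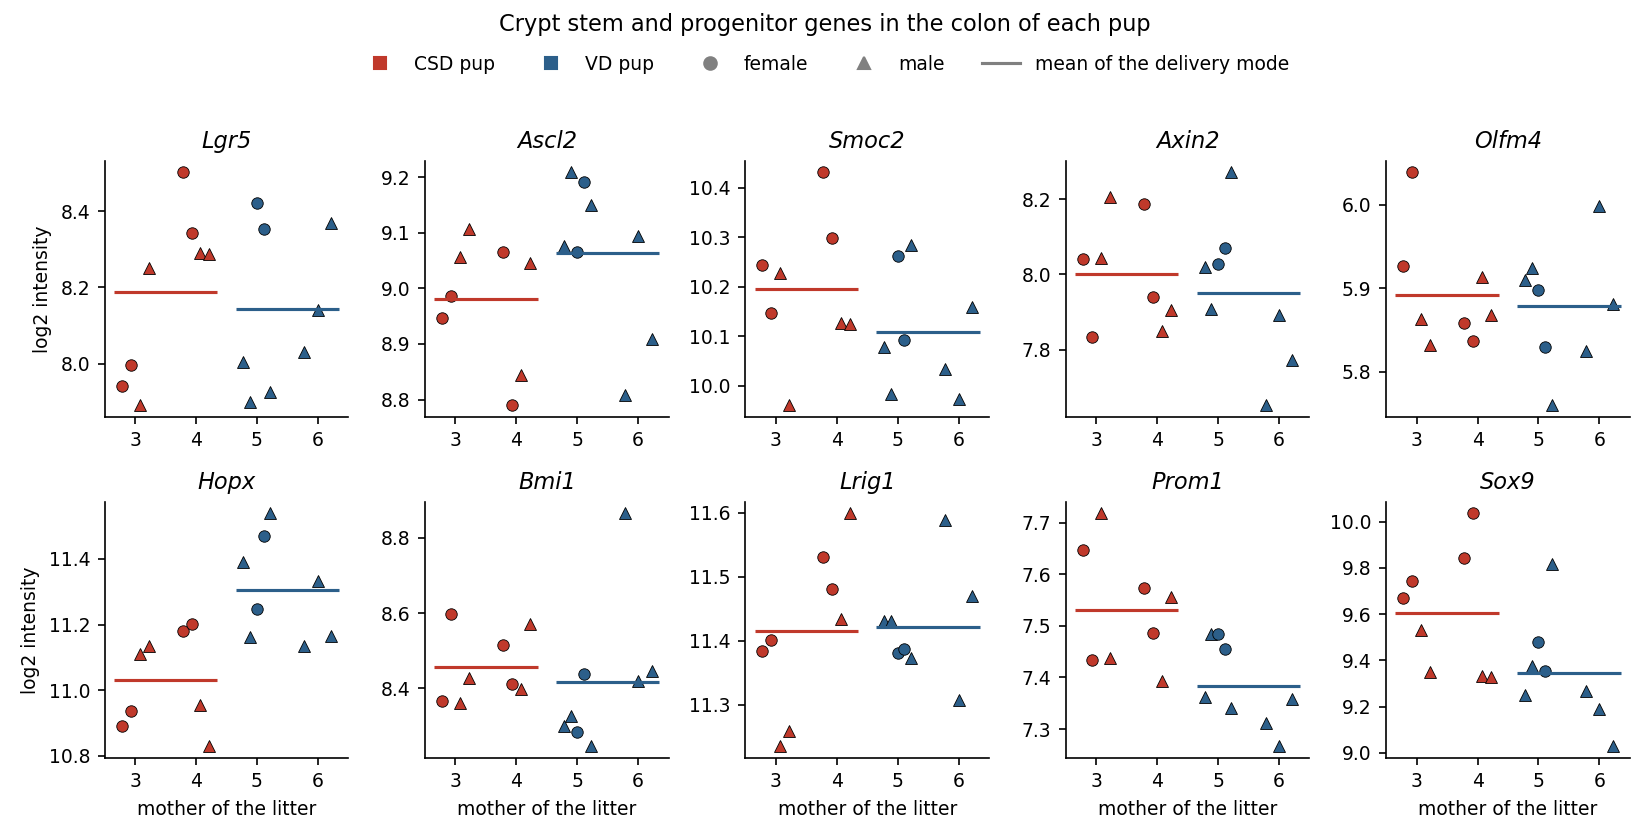
Log2 intensity of each of the 10 genes in each pup, by the mother of the litter, with circles for females, triangles for males and a line at the mean of each delivery mode. The CSD and VD pups overlap in every panel, the Lgr5 values of the litters of mothers 3 and 4 stand apart, and VD pup 6 is the high point of Bmi1.

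The 10 genes did not vary together as a group over the 16 pups, which came from 4 litters and 2 slides. Of their 45 pairs, 3 had a Pearson correlation above 0.5 and 1 below -0.5, and the median was -0.03. Smoc2 and Sox9 had the highest correlation (r = 0.72, Spearman's rho 0.71), which was 0.75 within CSD pups, 0.59 within VD pups and 0.70 without the 2 pups farthest from the Smoc2 median. Ascl2 and Axin2 followed (r = 0.60, rho 0.59), at 0.61 within CSD and 0.75 within VD pups, and then Lrig1 and Bmi1 (r = 0.57, rho 0.53). Bmi1 and Axin2 ran opposite to each other (r = -0.60, rho -0.46), but r was -0.25 without the 2 pups farthest from the Bmi1 median, 1 of them VD pup 6. Once the delivery means were taken out, the order changed. Hopx and Axin2, at 0.41 over all pups, then had the highest correlation (0.74), with 0.57 within CSD and 0.87 within VD pups. Ascl2 and Axin2 (0.70) and Smoc2 and Sox9 (0.68) came next.

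For each gene above background the 3 most similar genes were sought among 15664 genes well above background on all arrays, by Pearson correlation over the 16 pups. These are the highest of 15664 correlations, and how high chance alone would reach was not tested. Axin2 was most similar to Ano9 (r = 0.89), Rcor1 and Ppp2r5d, and Bmi1 to Ormdl3 (r = 0.88), an unnamed transcript and Tbc1d12. Prom1 was most similar to an unnamed transcript (r = 0.87), Lzic and Fntb, and Sox9 to 2 unnamed transcripts (r = 0.87 and 0.86) and to Lrp6 (r = 0.84). Ascl2 was most similar to Ajuba (r = 0.87), Anapc2 and G3bp2, and Smoc2 to Zfp457 (r = 0.87), Sort1 and Scarna13. Hopx was most similar to an unnamed transcript (r = 0.86), the mucin gene Muc1 (r = 0.84) and Esyt1, and Lrig1 to an unnamed transcript (r = 0.85), Hpgd and Eef1a1. Between Hopx and Muc1, r was 0.83 within CSD and 0.44 within VD pups, and 0.65 once the delivery means were taken out. Lgr5 was most similar to Ppfia4 (r = 0.81), an unnamed transcript and Slc7a5. No gene is named for Olfm4, which was at background. Without the 2 pups farthest from the Bmi1 median the correlation of Bmi1 was 0.60 with Ormdl3 and 0.32 with the unnamed transcript.

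Other genes of the crypt and its surroundings were read from lists that hold none of the 10 genes. The counts include a few genes with no probe well above background on all arrays, among them Sp5 (stem cell genes), Neurog3 (lineage choice) and Spp1 (repairing epithelium). Among 20 other crypt stem cell genes, 9 lay above and 11 below 0 (CSD over VD), 0 were called and the median log2 fold change was -0.02. The smallest p-values were those of Tert, the catalytic subunit of telomerase (-0.08, adjusted p = 0.276), and Aqp4, a water channel of the crypt base (0.31, adjusted p = 0.362). Among 24 Wnt and R-spondin niche genes, 16 were higher and 8 lower with 0 called and a median of 0.02. Of the 18 with a probe well above background on all arrays, 11 were higher and 7 lower (median 0.02). Wnt4, a Wnt ligand, was at 10.61 ± 0.20 (SD, n = 8) for CSD, against 10.97 ± 0.24 (SD, n = 8) for VD pups (-0.33, adjusted p = 0.146, limma), and Fzd5, a Wnt receptor, at 8.02 ± 0.20 (SD, n = 8) and 7.78 ± 0.10 (SD, n = 8) (0.20, adjusted p = 0.171). Rspo2, Rspo4, Wnt2b, Wnt3, Wnt9b and Lgr6 had no probe that was well above background on all arrays.

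Of 20 BMP signals and antagonists, 14 had a negative and 6 a positive log2 fold change (median -0.05), and 1 was called. Bmp4, a BMP ligand of the stroma around the crypts, fell in CSD pups to 11.85 ± 0.10 (SD, n = 8) from 12.13 ± 0.14 (SD, n = 8) in VD pups, which is -0.28 as a log2 fold change (adjusted p = 0.0448 in limma, standard error 0.06). Smad1, which carries BMP signals to the nucleus, was at 0.19 (adjusted p = 0.0844). Bmp4 was the called gene of the lists described here, and the call was near the threshold. It held in 9 of 38 alternatives, 3 of them without VD pup 7, 8 or 9, and its log2 fold change was -0.14 without the litter of mother 5. The log2 fold change was below 0 in all 38.

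In the lists for cell fate and growth, 0 genes were called. Of 15 Notch and lineage choice genes, 9 lay above and 6 below 0 (median 0.08), led by Spdef, a transcription factor of goblet cells (0.29, adjusted p = 0.0526), and Gfi1, which acts in secretory progenitors (0.21, adjusted p = 0.0674). Of 14 EGF receptor ligands and receptors, 7 were higher and 7 lower (median 0.01), with the receptor Erbb4 at -0.15 (adjusted p = 0.0542) and Lrig3, a relative of Lrig1, at 0.14 (adjusted p = 0.212). Of 8 genes of deep crypt secretory cells, which neighbour stem cells in the colon, 6 were higher (median 0.18). Their marker Reg4 was at 14.87 ± 0.40 (SD, n = 8) for CSD, against 14.26 ± 0.31 (SD, n = 8) for VD pups (0.54, adjusted p = 0.13), and Agr2 was at 0.16 (adjusted p = 0.357). Of 9 genes of fetal-like and repairing epithelium, 4 were higher and 5 lower (median -0.00159), with Clu, a marker of revival stem cells, at -0.43 (adjusted p = 0.0997) and Anxa3 at 0.06 (adjusted p = 0.621). Of 20 proliferation genes, 17 were lower in CSD pups by small amounts (median -0.07), led by the replication helicase genes Mcm5 (-0.24, adjusted p = 0.314) and Mcm2 (-0.20, adjusted p = 0.374). The mean level of these 20 genes had close medians, 10.17 in CSD and 10.19 in VD pups. CSD pup 5 (9.54) and CSD pup 7 (9.75) lay below every VD pup, and the other CSD pups lay inside the VD range.

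**Figure D5:**
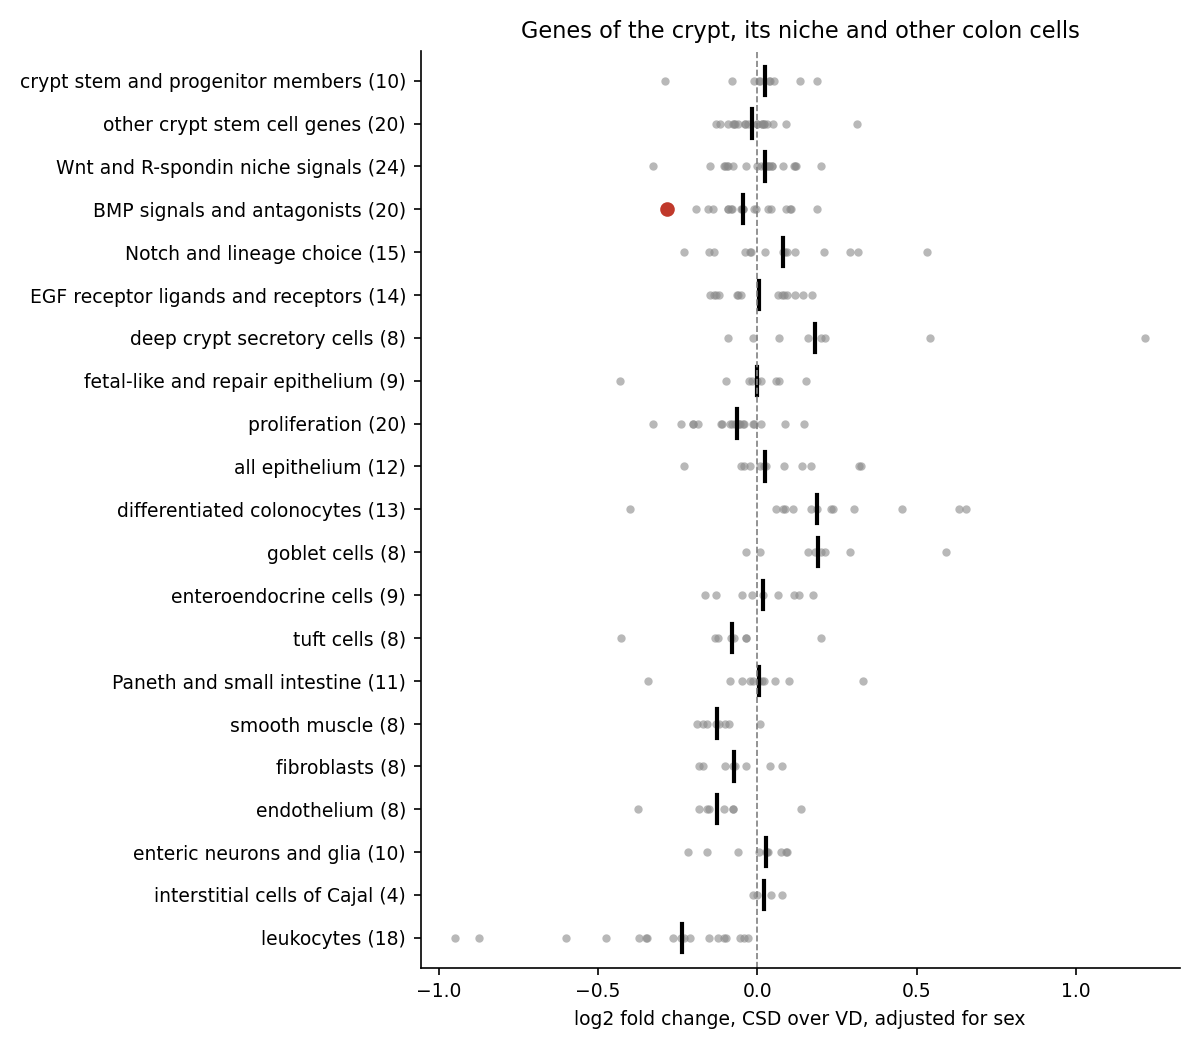
Log2 fold change of CSD over VD pups for every measured gene of each list, those at background included (points, number of genes in brackets), with a black bar at the list's median and the called gene, Bmp4, as a larger red point. The 10 crypt stem and progenitor genes lie around 0 (median 0.02), the leukocyte genes all lie below 0 (median -0.24), and most colonocyte and goblet cell genes lie above 0.

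Markers of other cells in the colon also differed in direction between the groups, with 0 called in each list. All 18 leukocyte genes were lower in CSD pups (median -0.24), with the list's mean level at 9.08 ± 0.27 (SD, n = 8) for CSD, against 9.44 ± 0.23 (SD, n = 8) for VD pups. Its brightest gene, Jchain, was at 13.98 and 15.07 and Cd79a at 6.83 and 7.34 (-0.48, adjusted p = 0.0993), and Cd8a and Gzmb had no probe above background on all arrays. Of 13 colonocyte genes, 12 were higher in CSD pups (median 0.19), with a list mean of 13.78 ± 0.15 (SD, n = 8) against 13.55 ± 0.26 (SD, n = 8), led by Slc26a3 (0.45, adjusted p = 0.113) and Guca2a (0.66, adjusted p = 0.18). Of 8 goblet cell genes, 7 were higher (median 0.19), with a list mean of 15.94 ± 0.15 (SD, n = 8) against 15.72 ± 0.12 (SD, n = 8), led by Spdef and Fcgbp (0.59, adjusted p = 0.0722). Muc2, Agr2 and Spink4 of this list also stand in that of deep crypt secretory cells, and Spdef in that of lineage choice, so these counts are not independent.

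Of 12 general epithelial genes, 8 were higher and 4 lower (median 0.02), with Epcam at 0.17 (adjusted p = 0.257) and Elf3 at -0.23 (adjusted p = 0.365). Endothelial genes were lower in 7 of 8 (median -0.13, Cldn5 -0.37 and Emcn -0.16), smooth muscle genes in 7 of 8 (median -0.13, Smtn -0.19 and Acta2 -0.17), fibroblast genes in 6 of 8 (median -0.07, Col6a1 -0.17 and Dcn -0.18) and tuft cell genes in 3 of the 4 above background (median -0.10, Plcg2 -0.43 and Ptgs1 0.20), while Gfi1b, Il25, Pou2f3 and Trpm5 were not above it on all arrays. Enteroendocrine genes (5 of 9 higher, median 0.02, Tph1 0.18 and Pyy -0.16), enteric neuron and glia genes (7 of 10 higher, median 0.03, Uchl1 -0.22 and Sox10 -0.16) and genes of interstitial cells of Cajal (2 of 4 higher, median 0.02, Etv1 0.08 and Ano1 0.04) lay on both sides of 0. Of the 3 Paneth and small intestine genes above background on all arrays 2 were lower, among them Lyz1 (-0.34).

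The mean level of the leukocyte genes had a correlation of 0.20 with Hopx over the 16 pups, but of -0.41 once the delivery means were taken out, -0.34 within CSD and -0.50 within VD pups. That of the proliferation genes was positive in each case (r = 0.58, rho 0.49, 0.59 without the delivery means, 0.65 within CSD and 0.57 within VD pups). Sox9 had an r of -0.53 with the leukocyte genes over all pups and of -0.33 without the delivery means, with opposite signs within CSD (-0.82) and VD pups (0.30). For Prom1 these were -0.54, -0.26, -0.51 and 0.13. With the epithelial genes r was 0.58 for Sox9 and 0.55 for Prom1, and 0.52 and 0.49 without the delivery means. For Hopx it was 0.13 over all pups and 0.51 without the delivery means. Prom1 also had an r of -0.69 with the endothelial genes. That value was -0.51 without the delivery means, -0.68 within CSD and -0.16 within VD pups. How far the makeup of the tissue has a part in the values of Hopx, Prom1 and Sox9 was not tested.

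Promoter windows of 300 bases from RefSeq (GRCm38.p6) were found for 7 of the 10 genes, in 9 windows, and not for Lgr5, Smoc2 and Sox9. The letters CTTTGA, the core that TCF/LEF factors of the Wnt pathway recognise, stood on either strand in 1 of the 9 windows, of Prom1, and in 16% of all 32851 windows. The longer CTTTGAT, which contains the shorter motif, was in 0 of the 9 windows and in 3.73% of all.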

How the data were processed

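Colon RNA of 16 pups was hybridised with Cy3 on 1-colour arrays. Scanner output of all arrays was deposited by the authors, extracted with Feature Extraction 12.0.3.2, in which each spot has a mean and a background intensity that are not normalized. They also deposited a gene matrix of log2 values, corrected, quantile normalized, filtered and averaged by gene with limma 3.38 per the labels and the methods, which do not name the kind of correction. The array design in the file headers, 074809, is not the one the methods give. The number of arrays and litters limits the precision.

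From the scanner output, normexp correction (offset 50), log2 and quantile normalization were applied with limma 3.58.1 in R 4.3.3. Control spots did not enter, nor did the 65 to 205 outlier spots of each array, the latter a step that the written design did not name. A probe had to exceed the 5% quantile on 4 or more arrays (56366 of 56605 did), and probes of a gene name were averaged, as in the methods. Of 36711 genes, 218 had missing values and were fitted on the remaining arrays. Delivery mode and sex were the terms of the lmFit and eBayes model, and pups of 1 mother formed a random block (duplicateCorrelation, consensus correlation 0.0152), with Benjamini-Hochberg adjustment over all genes at 0.05. Litters were compared as fixed groups with sex. Pups are separate animals, but pups of a litter are not independent, and the code was tested on simulated data. In that test, with 2 litters in each group, more unchanged genes were called than the threshold allows, so adjusted p-values near it may be too small. The exact permutation tests were two-sided.

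The 10 genes and the other lists were chosen with earlier results of these data known. All 10 genes were described, and each other list was represented by its called genes or, where none was called, by the 2 smallest p-values, of which 1 at background is left out. Some genes and 1 list are not reported here. Alternatives changed the correction, scaling, filters, probe averaging, model, slides and the pups or litters included. The fits of slides and of probe differences were added after the data had been seen. Probe positions (mm9) come from the array annotation in these files, and sequences are the last 30 bases of the deposited probes. Exon or UTR annotation on mm9 was not used here. The slide was read from the scanner output, and plots were drawn with matplotlib 3.10.9.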

Additional observations from a re-analysis of the deposited data

Results flagged for a closer look

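Values far from the rest of their group were sought in each of the 10 genes within the 8 CSD and within the 8 VD pups, 20 groups in all, of which chance alone would mark about 1 in 20. In Bmi1, VD pup 6 was at 8.86 (log2 intensity) against 8.25 to 8.45 in the other 7 VD pups. The high value came from 1 of the 2 Bmi1 probes, at 7.89 in VD pup 6 and 6.86 to 7.04 in the other VD pups, whereas the other probe was at 9.84, within the 9.53 to 9.93 of the other VD pups. Without VD pup 6 the log2 fold change of Bmi1 was 0.10. In Olfm4, CSD pup 5 was at 6.04 against 5.83 to 5.93 in the other CSD pups, with a probe that was not well above background on any array.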

How the results depend on the processing

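Of 40 alternatives, 37 gave 0 called genes among the 10, as in the result reported. Hopx was the 1 called gene without sex in the model, without the litter of mother 6 and with an adjusted p under 0.1 as the limit, and leaving out each pup gave 0 to 0. The median log2 fold change of the 10 genes was 0.09 when the scanner's own background correction was taken, both with quantile normalization (0.088) and with the 75th percentile (0.0939, with 8 of 9 genes above 0), and 0.0849 without the litter of mother 3, each further from 0.02 than the SD of that median between pups (0.0522). It was 0.0072 to 0.04 when each pup was left out. Olfm4 had no value in the fits with the scanner's correction. Hopx and Prom1 kept their direction in all 38 alternatives, as did Sox9 and Bmp4, but the Sox9 value ranged from 0.06 in males to 0.52 with the brightest probe. The sign of the other members changed in some, most often in Lgr5 (14 of 38), each time without a call. The comparisons of females with males and of litters gave 0 called members in all alternatives run, and also when each pup was left out, a step chosen after seeing the data.

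The shift between the 2 Sox9 probes was 0.75 with litter means as samples, 0.59 in males, 0.53 on slide 1, 0.82 on slide 2 and, leaving out 1 litter, 0.59 (mother 4) and 0.60 (mother 5), none of them called. Each of these fits had fewer samples. So had the fits without the litter of mother 3 (0.78, adjusted p = 0.025, limma) or mother 6 (0.69, adjusted p = 0.00313, limma), in which the shift was called. In those 2 fits 244 and 807 of the 6838 genes were called. The Sox9 shift was 0.62 to 0.74 and called when each pup was left out. Pups with the same title number did not deviate together (correlations of -0.05 to 0.22 over 5 shared numbers), so the numbers were not taken as pairs. With the number as a replicate block, 0 of the 10 genes were called, the median was -0.00165 and the Sox9 probe shift was 0.56 (adjusted p = 0.198). The count of all genes called, 460 as reported, fell to 0 with the replicate block, with litter means and in males, as on slide 2, and was 11 on slide 1. It was 243 and 102 with an offset of 16 and 0, 177 and 164 with the scanner's correction (quantile and 75th percentile), 170 with the deposited gene matrix, 992 without sex, and 212, 138, 189 and 2265 without the litters of mothers 3, 4, 5 and 6. The 992 and 2265 are the counts of the 2 fits in which Hopx was called. Leaving out each pup gave 145 to 617. The cause was not tested where values changed.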
